A study of Mus musculus with 17 samples.

Results

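Short-term hematopoietic stem cells (ST-HSC) and multipotent progenitors (MPP) of mouse bone marrow were compared by their mRNA on 6 arrays, 3 of ST-HSC and 3 of MPP, out of 17 arrays that covered 6 populations of stem and progenitor cells. The 6 arrays were chosen by the cell type in their labels, and all probes that are not controls were used. By the methods, all mice were female C57Bl/6 of 6 to 8 weeks without treatment or transgene named in the labels, and marrow of 10 to 20 mice was pooled for each replicate. Cells bearing B220, CD3, GR-1 or Ter119 were depleted, cells bearing c-kit were enriched, and both populations were sorted as Lin-, c-kit+, Sca-1+, CD34+ cells, ST-HSC as the FLT3- fraction and MPP as the FLT3+ fraction. Each array read the bulk mRNA of a sorted pool, as normalized log2 intensity. Difference here always means MPP minus ST-HSC on the log2 scale, and called means an adjusted p under 0.05 (limma, Benjamini-Hochberg).

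In the marrow, long-term stem cells are held to give rise to ST-HSC, which renew for a limited time, and these to MPP, which have lost most of their renewal but still form many blood lineages. FLT3 is the receptor of a cytokine that favours lymphoid and dendritic cell formation, and cells that gain it begin to transcribe genes of lymphocytes at a low level, a state known as lymphoid priming. Genes of platelets, red cells and mast cells can likewise be transcribed in progenitors well before those cells are formed, under factors such as GATA1, GATA2 and GFI1B.

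On the 6 arrays between 56.7% and 70.1% of the spots that are not controls were well above background by the scanner software, or 15896 to 20192 genes. ST-HSC 2, ST-HSC 3, MPP 2 and MPP 3 were on the same slide and scanned in the same run. The arrays without a replicate number were scanned in an earlier run, ST-HSC and MPP on different slides and on different days, so the run is balanced over both populations but the scan day is not. In a principal component analysis of the 6 arrays, the first component (42.7% of the variance) separated the unnumbered arrays from the numbered ones, and the second (31.2%) separated every MPP array from every ST-HSC array. By the methods the stem cell subsets were sorted together, and the labels do not say which arrays share mice. The main fit had no block, so its p-values measure the spread between arrays of a population, which includes differences between runs.

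Of 28090 genes, 692 were called, 385 higher in MPP and 307 lower. This is 2.46% of the genes in either direction, 1.37% higher in MPP and 1.09% lower, and these shares are the background for every list below. The median difference over all genes was 0.01. With the scanning run as a block in the fit, 1208 genes were called (4.3%), 655 higher in MPP (2.33%) and 553 lower (1.97%), and 690 of the 692 were among them with the same direction. With each array scaled to its 75th percentile instead, the median of all genes moved to -0.15, and 249 genes were called higher and 272 lower. Leaving out MPP 2, ST-HSC 3 or MPP 3 lowered the count the most, to 410, 424 and 459. Since the arrays read bulk mRNA, fewer cells of a type and less mRNA per cell cannot be told apart in any of these values. Of 107 called genes examined in this way, 73 kept the call without each array in turn and 34 lost it without at least 1. With the 6 arrays alone in the fit 51 of the 107 lost the call, with the 6 arrays alone normalized and fitted 56, and scaled to the 75th percentile 21, so many of the adjusted p-values below rest on the spread estimated with the 11 other arrays. Besides those said below to depend on single arrays, the 34 included Cbx2, Cd69, Fmnl2, Gsr, H2-Ab1, Hdc, Igsf6, Il6st, Irf9, Ly9, Mcpt8, Ms4a3, Ncam1, Pdk3, Pmaip1, Rgs2, Rpl3l, Selp, Slamf6, Snn, Stard4, C530008M17Rik, Rag2 and Cdh5.

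**Figure D1:**
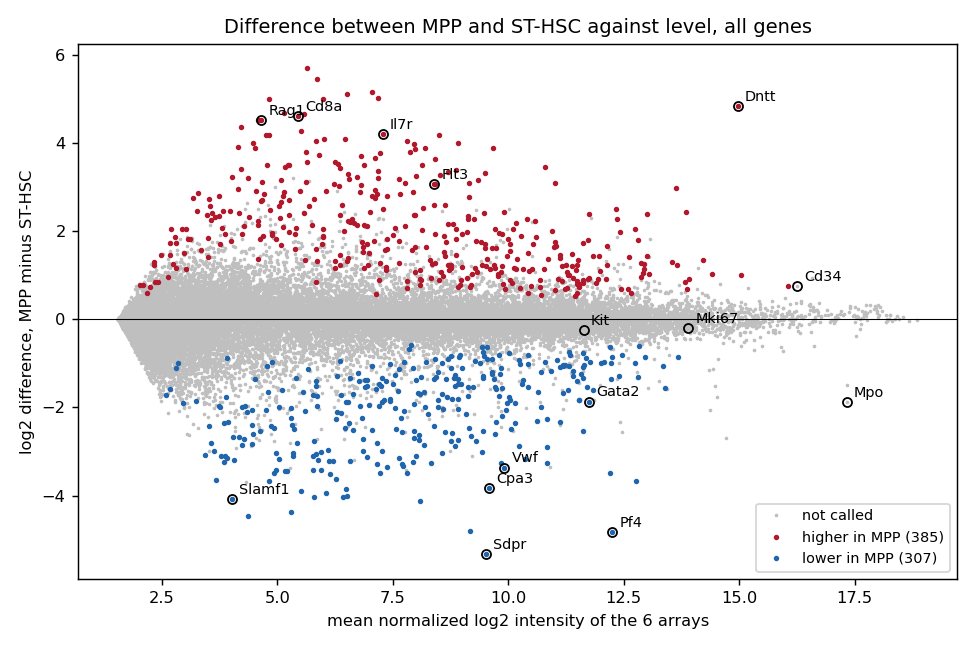
Log2 difference, MPP minus ST-HSC (vertical axis), against the mean normalized log2 intensity of the 6 arrays (horizontal axis) for 28090 genes, with the 385 genes called higher in MPP in red, the 307 called lower in blue and the others in grey. Dntt (4.85) and Il7r (4.21) lie among the higher genes, Sdpr (-5.34) and Pf4 (-4.83) among the lower ones, and the sort markers Kit and Cd34 among those not called.

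Among the markers used for the sort, only Flt3 was called. Its mRNA (chromosome 5 of mm9, 148159595 to 148159654 for the probe) stood at 6.99, 6.83 and 6.76 on ST-HSC 2, ST-HSC 3 and the unnumbered ST-HSC array, and at 9.89, 10.12 and 9.77 on the MPP arrays in the same order. All MPP arrays were above all ST-HSC arrays, with a difference of 3.07 ± 0.45 (SE), or 8.38-fold (adjusted p = 0.00244). Kit, the receptor used for enrichment, was at 11.76 ± 0.30 in ST-HSC and 11.51 ± 0.52 in MPP (SD, n = 3 each), and the arrays overlapped. Cd34 mRNA was at 15.88 ± 0.09 and 16.64 ± 0.24, higher on every MPP array, but the difference of 0.76 was not called (adjusted p = 0.797). Ly6a, which encodes Sca-1, was at 8.88 ± 0.79 and 9.93 ± 0.61 with overlapping arrays (adjusted p = 0.638). All of these markers were well above background on all 6 arrays.

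Some genes of early lymphocytes were higher in MPP. Of 48 genes in a list of lymphoid priming genes, 19 were higher (39.6%), none was lower, and the median difference of the list was 0.86. The 19 include Flt3, which was used for the sort. With only these 6 arrays normalized and fitted, 10 were higher. On 30 of the 48 all MPP arrays were above all ST-HSC arrays, against 6.77% of all genes. Dntt, the polymerase that adds untemplated bases at the joints of antigen receptor genes, was at 12.73, 12.84 and 12.06 on ST-HSC 2, ST-HSC 3 and the unnumbered ST-HSC array and at 17.56, 17.20 and 17.41 on the MPP arrays. All MPP arrays were far above all ST-HSC arrays, and the populations differed by 4.85 ± 0.52 (SE), a 28.8-fold difference (adjusted p = 0.000282), and both other Dntt probes were called, at 5.05 and 5.65. The brightest Dntt probe matches mm9 chromosome 19 at 41133936 to 41133995. Rag1, a subunit of the recombinase that cuts antigen receptor genes, was not well above background on any ST-HSC array and was at 7.19, 6.50 and 7.06 in MPP. Where a probe was not above background on any array of a population, only an approximate lower bound of the fold is given. It was taken against the dimmest signal the scanner software called on the same arrays, or the probe's own signal where higher. A probe can be brighter than that dimmest signal and still not be above background, so the true fold can be smaller. For Rag1 the difference was at least 15.9-fold by this bound (adjusted p = 0.0101). The call on Rag1 was lost without MPP 2 or without ST-HSC 3 (adjusted p up to 0.0571). Rag2, its partner, was called as well (adjusted p = 0.0345, named after its value was seen), but its probe was well above background on 1 MPP array and on no ST-HSC array.

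Il7r, the interleukin-7 receptor chain on which early lymphocytes depend, was at 4.82, 5.04 and 5.68 in ST-HSC and 9.46, 9.01 and 9.68 in MPP, a difference of 4.21 ± 0.51 (SE, adjusted p = 0.000596). Of its other probes, 1 was dim, with a difference of 0.81, and 1 was not above background on any of the 6 arrays, and neither was called. Satb1, a chromatin organizer of lymphocytes, was 4.89-fold higher in MPP (9.26 ± 0.13 against 11.55 ± 0.15, SD, n = 3 each), and both of its probes were called. The B lineage genes Igh-6, the immunoglobulin mu chain, and Blnk, an adaptor of the pre-B cell receptor, were 7.88-fold and 8.54-fold higher (adjusted p = 0.000216 and 0.00204), both named here after their values were seen. Both had higher means still in long-term stem cells, given below. Ikzf1, which encodes Ikaros, was at 10.46 ± 0.30 and 11.22 ± 0.10 and was not called (adjusted p = 0.0666), and it was called with the run as a block (adjusted p = 0.0312). Tcf7, a T lineage factor of the same list, had a difference of -1.77 (adjusted p = 0.0539, and 0.0201 with the run as a block).

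From the list of adhesion and homing genes, the chemokine receptors Ccr9 and Ccr7 were called higher in MPP. Ccr9, a receptor used for homing to the thymus, was at 5.79, 5.38 and 5.56 in ST-HSC and 8.60, 8.48 and 9.27 in MPP, a difference of 3.21 ± 0.28 (SE, adjusted p = 7.2e-05). Ccr7 was at 2.41, 2.47 and 5.58 in ST-HSC, above background only on 1 array, and at 6.43, 6.35 and 8.22 in MPP. Both unnumbered arrays were the highest of their population for Ccr7. Its difference of 3.51 (adjusted p = 0.0277) was called as well with the run as a block (adjusted p = 0.000447) but lost its call when any array other than the unnumbered ST-HSC array was left out. Cxcr4, the receptor that holds stem cells in the marrow, was at 9.59 ± 0.83 and 9.82 ± 0.85 and was not called.

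Of 13 markers of T and NK cells, 2 were higher in MPP and none lower, and the median of the list was -0.01. Cd8a, the alpha chain of the CD8 coreceptor that is also found on a dendritic cell subset, was at 3.28, 2.74 and 3.38 in ST-HSC and at 7.82, 8.10 and 7.32 in MPP (difference 4.61 ± 0.34 SE, adjusted p = 3.17e-05). A further probe of Cd8a was called with a difference of 2.61. Klrd1, a receptor chain of NK cells, was 5.72-fold higher in MPP (adjusted p = 0.00169). The CD3 chains, which mark T cells and were a target of the depletion, were not called: Cd3e was at 6.54 ± 1.64 in ST-HSC and 6.53 ± 1.10 in MPP, and Cd3d and Cd3g had lower means in MPP (adjusted p = 0.802 and 0.696). Zap70, a kinase of T cell receptor signalling, was at 4.89 ± 0.62 and 6.60 ± 0.68, higher on every MPP array but not called (adjusted p = 0.269). Of 12 B cell markers none was called in either direction (limma), and 1 was called higher with the replicate number as a block. Ms4a1, which encodes CD20, was at 4.46 ± 1.91 and 3.83 ± 0.77 (adjusted p = 1). Ebf1, the factor that commits cells to the B lineage, was not above background on any of the 6 arrays.

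Of 26 genes of antigen presentation on the array 5 were called, all higher in MPP (19.2%), and 21 did not pass the test. All 26 had a positive difference, with a median of 0.49. With the run as a block 8 were called, and with the 6 arrays alone in the fit 1. Cd74, the invariant chain that escorts class II molecules, was at 10.67, 11.86 and 12.93 in ST-HSC and at 13.95, 14.20 and 14.47 in MPP (adjusted p = 0.012). The ST-HSC arrays were more widely spread than the MPP arrays, and the populations did not overlap. H2-Ab1, a class II beta chain, was 5.41-fold higher on its brightest probe (adjusted p = 0.0267), with differences of 2.41 to 2.52 on its other 3 probes, none of them called. H2-Ob, H2-DMb1 and H2-Oa, which tune peptide loading of class II, were 4.38-fold, 2.35-fold and 2.13-fold higher (adjusted p = 0.000206, 0.00592 and 0.00683), with H2-Oa named after its value was seen. Ciita, the master activator of class II genes, differed by 2.46 and was called only with the run as a block (adjusted p = 0.0812, and 0.0263 with it). H2-Aa and H2-Eb1 had differences of 2.50 and 2.30 and were not called (adjusted p = 0.149 and 0.0745). Probes of class I and class II genes can bind copies of like sequence, so the values of single genes of this family are uncertain.

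Clec9a and Apol7c were among the 12 largest differences in favour of MPP, and they are given here with some other genes known from dendritic cells, which were not fixed as a list. The fixed list of macrophage and dendritic cell markers did not rise with them. None of its 13 genes was called higher and 4 were called lower, with a median of -0.51 (-0.15 with normexp background correction). Those 4 were C1qa, C1qb, C1qc and Emr1, and 5 of the 13 had a positive difference. Clec9a, a receptor for dying cells on cross-presenting dendritic cells, was not well above background in ST-HSC (2.78, 2.16 and 3.20) and was at 7.11, 7.67 and 5.94 in MPP, at least 15-fold higher (adjusted p = 0.00149). Apol7c, named for its likeness to apolipoprotein L, was likewise well above background on all MPP arrays and on no ST-HSC array, at least 15.2-fold higher (adjusted p = 0.000337). Mycl1, the Myc relative expressed by dendritic cells, was 9.38-fold higher (5.12 ± 0.22 against 8.35 ± 0.26, adjusted p = 0.00705). Irf8, a factor that dendritic cells and monocytes require, was at 11.85, 11.61 and 11.67 in ST-HSC and at 13.80, 14.05 and 13.45 in MPP, a difference of 2.06 ± 0.43 (SE, adjusted p = 0.025) that lost its call when any single array other than the unnumbered MPP array was left out. Id2, an inhibitor of E proteins, was 4.02-fold higher on its brightest probe and was called on both (adjusted p = 0.00244). Itgax, which encodes CD11c, was at 8.23 ± 0.79 and 9.93 ± 0.18 and was not called (adjusted p = 0.078).

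The 12 largest differences in favour of MPP under the rule for named genes held further genes that are in none of these groups. Arpp21, a phosphoprotein known from neurons and immature thymocytes, had the largest of them, at 4.16, 2.89 and 4.81 in ST-HSC and 9.32, 8.59 and 9.30 in MPP (difference 5.11 ± 0.47 SE, adjusted p = 9.73e-05). Chl1, an adhesion molecule of the L1 family, differed by 4.66 (adjusted p = 0.0057) and was called as well on a further probe that was not above background in ST-HSC. The gene named Kal1 on the array differed by 4.18 and by 4.37 on its other probe. Rasal1, a Ras GTPase activator, differed by 4.27 (adjusted p = 0.000281). Speer6-ps1, a pseudogene of a family with many near copies, was at least 11-fold higher (adjusted p = 5.88e-05), and which copy its probe read is uncertain. Postn, a matrix protein kept in a list of marrow stroma markers, was at 2.67 ± 0.36 in ST-HSC and 6.85 ± 0.16 in MPP (adjusted p = 0.00654), while the other 13 markers of that list were not called and its median was -0.19.

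**Figure D2:**
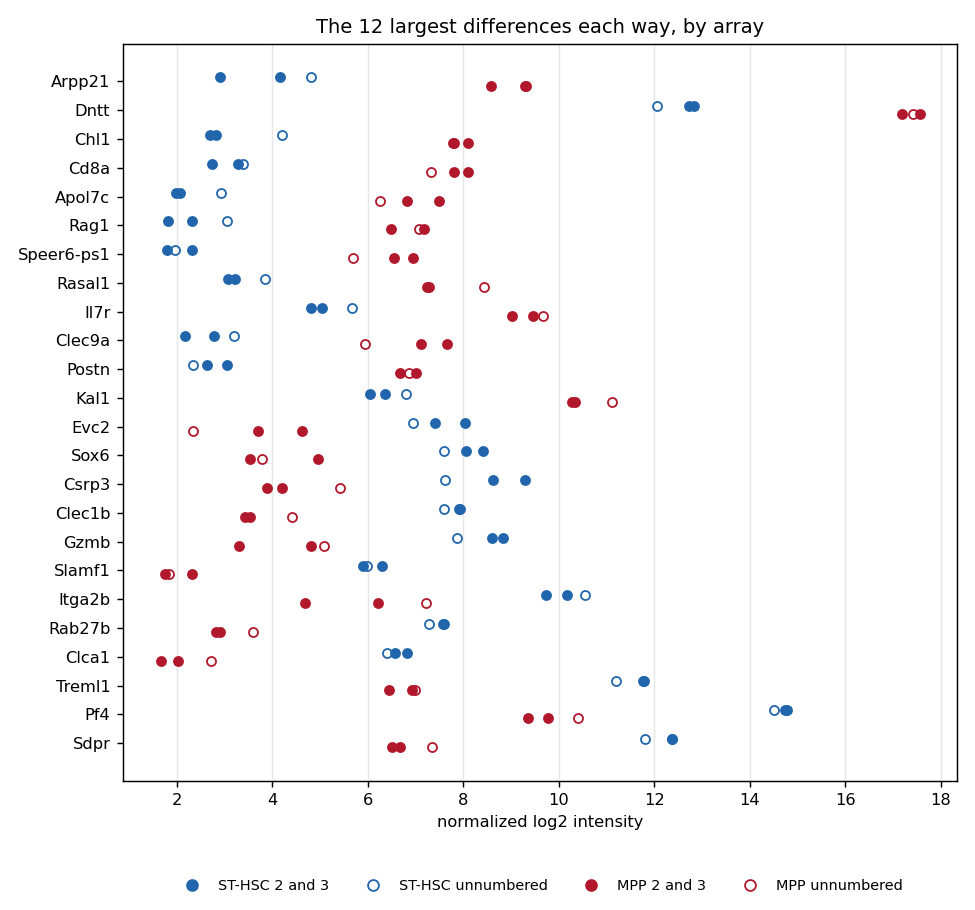
Normalized log2 intensity (horizontal axis) of the 12 genes with the largest differences each way under the rule for named genes, one point per array, ST-HSC in blue and MPP in red, with the unnumbered arrays as open circles. Blue and red points do not overlap for any of these genes, from Arpp21 (difference 5.11) at the top to Sdpr (-5.34) at the bottom.

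Receptors and signalling genes changed in both directions. Of 47 cytokine and growth factor receptors 5 were higher in MPP (10.6%) and 2 lower. These were 6 and 5 with the run as a block, 5 and 5 on the authors' values, with normexp background correction 5 and 6, and with the 6 arrays alone in the fit 3 and 3. Besides Flt3 and Il7r, Il1r1, the interleukin-1 receptor, was 5.39-fold higher (8.70 ± 0.14 against 11.13 ± 0.39, SD, n = 3 each, adjusted p = 0.000282), and Il6st, the chain gp130 shared by interleukin-6 family receptors, was 2.18-fold higher (adjusted p = 0.0306). Ifnar2, a chain of the type I interferon receptor, was 1.83-fold higher (adjusted p = 0.0097, named after its value was seen). The receptors that were lower were Epor and Il1rl1, given with the erythroid and mast cell genes. Csf1r and Csf3r, the receptors for macrophage and granulocyte colony-stimulating factor, had differences of -0.46 and -0.23 and overlapping arrays (adjusted p = 1 for both by limma).

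In the Notch pathway, which directs lymphoid progenitors toward the T lineage, 2 of 33 genes were called, both receptors and both higher in MPP. With the run as a block 5 were higher, and with the 6 arrays alone in the fit limma called none. Notch1 was at 7.57, 6.90 and 7.85 in ST-HSC and at 9.39, 8.97 and 9.80 in MPP, a difference of 1.94 ± 0.30 (SE, adjusted p = 0.00325), and both of its probes were called. Notch4, a receptor known from endothelium, was 3.36-fold higher (adjusted p = 0.00346). Other genes of vessels went both ways: of 36 vascular-type genes 3 were higher and 1 was lower, with normexp background correction 3 and 3, on the authors' values 2 and 3, and scaled to the 75th percentile 2 and 2. Ramp2, a partner of the adrenomedullin receptor, was 4.39-fold higher and Egfl7, a secreted vascular protein, 2.70-fold higher, while Esam1, an endothelial adhesion molecule that also marks stem cells, was lower by 1.99 ± 0.27 (SE, adjusted p = 0.0015). The third gene called higher was Cdh5, named after its value was seen and well above background on 1 MPP array only. Ramp2 kept its call only without the unnumbered ST-HSC array among the leave-one-out fits, and the count of higher genes fell to 1 without any numbered array.

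Many genes of megakaryocytes and platelets were lower in MPP, while most markers of mature red cells were not called. Of 39 genes in a list of megakaryocyte and erythroid genes on the array, 24 were lower (61.5%) and none higher, with a median difference of -1.82. On 27 of the 39 all MPP arrays lay below all ST-HSC arrays, against 7.18% of all genes. Without single arrays in turn, 18 to 23 were lower, and with only these 6 arrays normalized and fitted it was 14. The 11 platelet markers, all members of that list, had a median of -3.50, and 9 of them were lower in MPP. The size of such medians depends on the treatment of background: with normexp correction and on the authors' values the platelet median was -1.60 and -2.14, with 9 and 10 called lower.

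Pf4, the platelet chemokine CXCL4, was at 14.78, 14.73 and 14.52 in ST-HSC and at 9.35, 9.77 and 10.41 in MPP, so that the MPP level was 28.5-fold lower (difference -4.83 ± 0.43 SE, adjusted p = 8.41e-05). Treml1, a receptor of platelet granules, was at 11.76, 11.79 and 11.19 against 6.43, 6.92 and 6.99, with a difference of -4.80 (adjusted p = 3.99e-05). Sdpr, the caveola protein now called Cavin2, had the largest difference of the comparison in this direction under the rule for named genes, at 12.37, 12.37 and 11.80 against 6.50, 6.67 and 7.35 (-5.34 ± 0.49 SE, adjusted p = 9.73e-05). In each of these genes the unnumbered arrays lay closer together than the numbered ones, with differences of -4.11 for Pf4, -4.2 for Treml1 and -4.44 for Sdpr within the earlier run, against -5.20, -5.10 and -5.78 on the numbered arrays.

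Itga2b, the integrin chain CD41, was at 9.73, 10.17 and 10.55 in ST-HSC and spread from 4.69 to 7.21 in MPP (difference -4.11 ± 0.53 SE, adjusted p = 0.00101). Cd9, a tetraspanin of platelets, was lower by 1.28 (adjusted p = 0.00827, named after its value was seen). The partner chain of Itga2b, Itgb3, was 4.16-fold lower in MPP (adjusted p = 0.00144), while the second, dimmer Itgb3 probe differed by -0.30 and was not called. Clec1b, the podoplanin receptor CLEC-2, was lower by 4.03 (adjusted p = 0.00423), and Rab27b, a small GTPase of platelet granule release, by 4.38 (adjusted p = 0.000686), with a further Rab27b probe called. Vwf, von Willebrand factor, was at 11.69, 11.67 and 11.44 in ST-HSC and at 8.03, 8.27 and 8.39 in MPP, a difference of -3.37 ± 0.27 (SE, adjusted p = 5.35e-05). Of the glycoprotein Ib-IX-V complex, Gp1ba and Gp5 differed by -3.86 and -3.50 (named after their values were seen). The markers that were not called were Ppbp, at -2.73 with no overlap (adjusted p = 0.139, and 0.0331 with the run as a block), and the collagen receptor Gp6, which was dim and differed by -0.65 (adjusted p = 0.984).

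Because the platelet markers moved together, their promoters were searched for letters that GATA factors bind. The windows reach from 250 bases before to 50 after the start of each gene in RefSeq (GRCm38.p6), and AGATAA and TGATAA were searched on both strands, which cannot both match at 1 position. Windows were found for 10 of the 11 genes, Itgb3 excepted. A motif was present in 5 of the 10 (50%), in 13 of 28 windows of the wider megakaryocyte and erythroid list (46.4%), in 4 of 35 of the lymphoid priming list (11.4%) and in 6115 of 32851 windows in the table (18.6%). This search was chosen after the values were seen, and a match describes letters only. The matches fell in Clec1b, Gp1ba, Gp5, Gp6 and Pf4. The 6 that lie before the start are printed from 5′ to 3′ on the strand of the gene, in lower case with the motif in capitals (TTATCT and TTATCA are the motifs read on the other strand), to show where they stand in these genes.
Clec1b, chr6:129397097-129397124, plus strand, motif at -189: gataatataaaTGATAAgattagacatt
Gp1ba, chr11:70639007-70639034, plus strand, motif at -104: gtgcagagagcTGATAAgagcctttgcc
Gp1ba, chr11:70639060-70639087, plus strand, motif at -51: acaggagctgaTTATCAggttgtcattt
Gp5, chr16:30310858-30310885, minus strand, motif at -93: ttcttgactttTTATCTggtaaggtctt
Gp5, chr16:30310842-30310869, minus strand, motif at -77: tggtaaggtctTTATCTtgaggatgcaa
Gp6, chr7:4397872-4397899, minus strand, motif at -144: ctggcaagaagAGATAAgtggtggcttt
Clec1b, Gp1ba and Gp5 were lower in MPP, and Gp6 was not called, so that a match was present in called and uncalled members alike.

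Several transcription factors of the megakaryocyte and erythroid lineages were lower in MPP. Gata1, which drives red cell and platelet genes, was at 8.24, 8.33 and 8.50 in ST-HSC and at 4.74, 5.32 and 6.02 in MPP (difference -3.0 ± 0.40 SE, adjusted p = 0.00121). Gata2, a factor of stem cells, mast cells and early megakaryocyte and erythroid progenitors, was at 12.84, 12.79 and 12.42 against 10.92, 10.92 and 10.60, 3.65-fold lower (adjusted p = 5.69e-05), and its other probe gave -2.18. Gfi1b, a repressor both lineages need, was 2.50-fold lower, from 12.28 ± 0.18 to 10.96 ± 0.05 (adjusted p = 0.00576). Zfpm1, the GATA cofactor FOG-1, Klf1, the main activator of globin genes, and Tal1 differed by -1.57, -2.51 and -1.0, all called and named after their values were seen. Klf1 lost the call without ST-HSC 3, MPP 2, MPP 3 or the unnumbered ST-HSC array, and Tal1 without ST-HSC 3, MPP 2 or the unnumbered MPP array. Sox6, which takes part in globin silencing, was at 8.06, 8.41 and 7.60 in ST-HSC and 3.53, 4.96 and 3.77 in MPP (difference -3.94 ± 0.42 SE, adjusted p = 0.000282), and a further probe, not above background on any MPP array, was called lower as well. Epor, the erythropoietin receptor, was 6.78-fold lower, at 10.14 ± 0.30 against 7.38 ± 0.49 (SD, n = 3 each, adjusted p = 0.000336).

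Mature red cell genes differed less. Of 11 erythrocyte markers, 10 had a negative difference, with a median of -0.84 (-0.36 with normexp background correction and -0.51 on the authors' values), but only Hemgn, a nuclear protein of blood progenitors, was called (-1.53, adjusted p = 0.021), and not without ST-HSC 2, ST-HSC 3, MPP 2 or the unnumbered MPP array. With the replicate number as a block 3 of them were called lower. The mean log2 intensity over these markers was 7.02 to 8.28 on the ST-HSC arrays and 6.20 to 7.34 on the MPP arrays, which overlapped, and was higher on the unnumbered array in each population.

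Genes of mast cells and basophils were lower in MPP, with all 12 members of the list at a negative difference, a median of -2.50, and 8 called (66.7%). With normexp background correction the median was -1.44 and 8 were called. Cpa3, the carboxypeptidase of mast cell granules, was at 11.75, 12.06 and 10.70 in ST-HSC and at 7.58, 7.33 and 8.12 in MPP, 14.2-fold lower (difference -3.83 ± 0.34 SE, adjusted p = 7.2e-05). Gzmb, granzyme B, was at 8.83, 8.60 and 7.88 against 4.82, 3.29 and 5.09 (-4.04, adjusted p = 0.00243), and Ms4a2, the beta chain of the IgE receptor, at 7.15, 7.74 and 5.81 against 3.51, 3.30 and 3.54 (-3.45, adjusted p = 0.00126). Hdc, which makes histamine, was at 12.49, 12.43 and 12.52 in ST-HSC and at 8.76, 8.45 and 10.42 in MPP (-3.27, adjusted p = 0.0189), where the unnumbered array was closest to ST-HSC. Cma1, a chymase, and Mcpt8, a basophil protease, differed by -3.15 and -2.60 and were also called, as were Mcpt4, a mast cell chymase, at -2.41 and the cytokine gene Il4 at -2.08. These 4 genes were named after their values were seen. Il1rl1, the interleukin-33 receptor of mast cells and basophils, was counted with the receptors and differed by -2.48 (adjusted p = 0.000411). The 4 members not called were Prss34, Fcer1a, Tpsb2 and Tpsab1, of which Tpsab1, a mast cell tryptase, was not well above background on any array. Without ST-HSC 2 or without ST-HSC 3, 5 of the list were called, and 1 with the 6 arrays alone in the fit.

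Among 32 granulocyte and monocyte genes 26 had a negative difference, with a median of -0.65, but calls went both ways, 3 lower and 2 higher in MPP. Ms4a3, a membrane protein of granulocyte and monocyte progenitors, was at 13.84, 13.67 and 14.32 in ST-HSC and at 9.75, 9.60 and 12.05 in MPP (-3.48, adjusted p = 0.0326). Igsf6, an immunoglobulin family gene of myeloid cells, was lower by 2.90 (adjusted p = 0.0181) and F13a1, the coagulation factor XIII A chain, by 1.98 (adjusted p = 0.00317). Cd33, a sialic acid binding receptor, was higher in MPP, at 4.97 ± 0.48 against 7.01 ± 0.47 (adjusted p = 0.00263), as was Irf8. Mpo, myeloperoxidase, was at 18.13, 17.96 and 18.70 against 15.86, 15.97 and 17.35, lower on every MPP array, with a difference of -1.87, but not called (adjusted p = 0.308). Cebpa, the factor of granulocyte formation, was at 9.12 ± 0.25 and 9.11 ± 0.17, and Sfpi1, which encodes PU.1, at 5.89 ± 0.83 and 6.21 ± 0.73, neither called. Without ST-HSC 3, MPP 2, MPP 3 or the unnumbered ST-HSC array only 1 gene of the list was lower, and with scan day as a block, an alternative added after seeing the data, 10 were.

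All 13 neutrophil markers had a negative difference, with a median of -1.52, and none was called. S100a8, a calcium-binding protein of neutrophils, was at 14.91, 15.02 and 16.26 in ST-HSC and at 12.74, 12.67 and 14.63 in MPP (adjusted p = 0.216), and Fcnb, ficolin B, differed by -2.05 with overlapping arrays (adjusted p = 0.631). In both genes the unnumbered array was the highest of its population. The mean over these markers was 10.24 to 11.57 on the ST-HSC arrays and 8.58 to 10.48 on the MPP arrays, with the unnumbered array the highest of each population. With the run as a block 1 of the markers was called, with scan day as a block 3, and with the run as a block in a fit of the 6 arrays 6.

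Of 13 macrophage and dendritic cell markers 4 were lower in MPP (30.8%), namely the complement genes C1qa, C1qb and C1qc and the macrophage receptor Emr1, now called Adgre1. C1qa was at 7.63, 9.39 and 9.30 in ST-HSC and at 5.41, 5.37 and 6.53 in MPP (difference -3.0 ± 0.43 SE, adjusted p = 0.00225). C1qc and C1qb differed by -3.03 and -1.36 (adjusted p = 0.0142 and 0.00886), and Emr1, at 9.5, 10.73 and 10.61 against 7.29, 7.39 and 7.97, by -2.73 (adjusted p = 0.00232). ST-HSC 2 was the lowest of its population in all of them. C1qc lost its call without ST-HSC 3, MPP 2, MPP 3 or the unnumbered ST-HSC array and C1qb without ST-HSC 3, and with the 6 arrays alone in the fit none of the 4 was called.

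The levels of some marker lists of other cells thus moved with the populations, and their part in the single genes above was not tested. Averaged over each list, the platelet markers were at 9.16 to 9.35 on the ST-HSC arrays and 5.78 to 6.54 on the MPP arrays. The mast cell and basophil markers were at 7.98 to 8.48 against 5.57 to 5.98, and the macrophage and dendritic cell markers at 6.22 to 7.01 against 5.40 to 6.01. The ranges of T and NK cell markers, 4.96 to 5.34 and 5.36 to 5.56, were close without overlap. Of those 13 markers 7 had a negative difference, and their median was -0.01. The ranges of B cell markers (4.94 to 5.56 and 5.22 to 5.49) and of marrow stroma markers (5.10 to 5.68 and 5.32 to 5.92) overlapped.

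**Figure D3:**
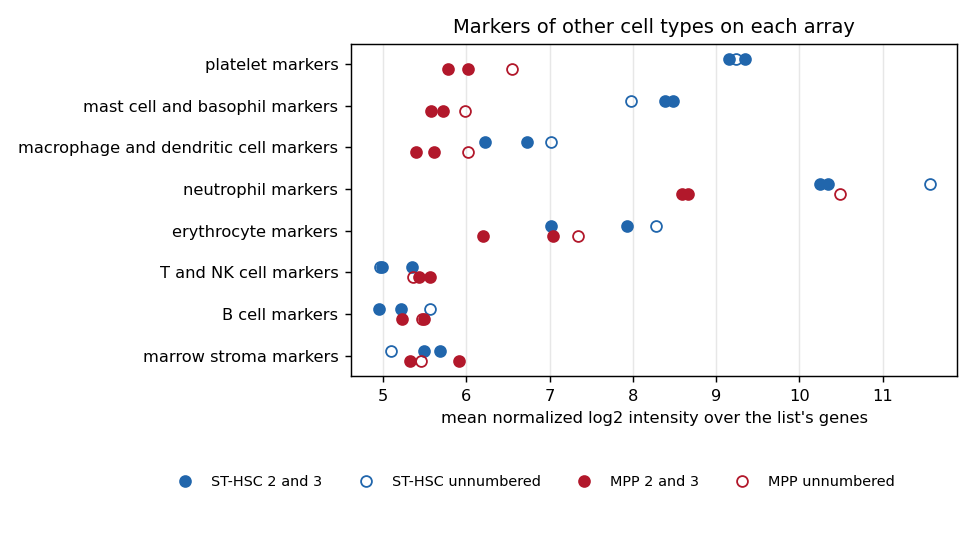
Mean normalized log2 intensity over the genes of 8 marker lists (horizontal axis), one point per array, ST-HSC in blue and MPP in red, with the unnumbered arrays as open circles. Platelet markers (9.16 to 9.35 against 5.78 to 6.54) and mast cell and basophil markers (7.98 to 8.48 against 5.57 to 5.98) are far apart, while B cell and stroma markers overlap.

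Genes tied to stem cells were mostly not called, and those that were called were mostly lower in MPP. Of 54 such genes 11 were lower (20.4%) and 1 higher, with a median of -0.15. Without ST-HSC 3, MPP 2 or the unnumbered MPP array 7 were lower, and with the 6 arrays alone in the fit 6. Of the 54, 5 also belong to the megakaryocyte and erythroid list. Slamf1, the receptor CD150 used to isolate long-term stem cells, was at 5.90, 6.29 and 5.99 in ST-HSC and not well above background on any MPP array, at least 8.83-fold higher in ST-HSC (adjusted p = 0.000282). Clca1, now called Clca3a1 and a member of a family of chloride channel regulators, was likewise well above background on all ST-HSC arrays and on no MPP array, at least 12.8-fold higher (6.56, 6.82 and 6.41, adjusted p = 2.77e-05). The 12 largest differences in favour of ST-HSC also held Csrp3, a muscle LIM protein, at 8.62, 9.29 and 7.61 against 3.88, 4.2 and 5.42 (adjusted p = 0.000425). Evc2, a ciliary protein, was among them too, with -3.90 on its brightest probe (adjusted p = 0.00279) and -0.32 on the other, which was not called. Tek, the angiopoietin receptor TIE2, differed by -1.21 (adjusted p = 0.0799, and 0.0189 with the run as a block).

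Several genes known from the study of stem cells were not called. Procr, which encodes EPCR, was at 10.94 ± 0.44 in ST-HSC and 11.33 ± 0.21 in MPP (adjusted p = 0.944). Hlf, a stem cell transcription factor, was at 12.42 ± 0.14 and 12.98 ± 0.29, higher on every MPP array but not called (adjusted p = 0.451). Meis1, which binds DNA with Hox proteins, was at 9.24 ± 0.39 and 9.11 ± 0.30 and Cd48, a receptor that separates stem cells from progenitors in many sorts, at 12.05 ± 0.18 and 12.04 ± 0.24. Of 27 Hox genes and partners, Hoxa9 was the only one called higher. Hoxa9, which promotes progenitor growth, was at 8.81, 9.0 and 8.94 against 9.88, 10.28 and 10.24, 2.32-fold higher in MPP (adjusted p = 0.00162). Hoxb5 was dim, at 5.15 ± 0.60 and 3.81 ± 0.49, and was not called (adjusted p = 0.44).

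Adhesion and homing genes were called in both directions, 6 of 45 higher in MPP and 7 lower. Itgb7, an integrin chain of lymphocytes that home to the gut, was 2.68-fold higher (adjusted p = 0.00317), and Slamf6 was higher by 1.37 (adjusted p = 0.0481) with a second probe that was not called. Ccr7, Ccr9 and Cdh5, given above, and Ly9, a lymphocyte receptor of the same family as Slamf6 (0.92, named after its value was seen), were the other 4. Ncam1, the neural cell adhesion molecule, was lower by 2.43 on its brightest probe (adjusted p = 0.0235), while none of its other 7 probes was called and 3 of them had a positive difference. The others that were lower were Slamf1, Itga2b, Itgb3 and Esam1, given above, and Selp and Itga6, which encode P-selectin and CD49f, at -1.46 and -1.08, named after their values were seen. Without ST-HSC 2, ST-HSC 3, MPP 2 or MPP 3 only 2 of the list were higher.

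**Figure D4:**
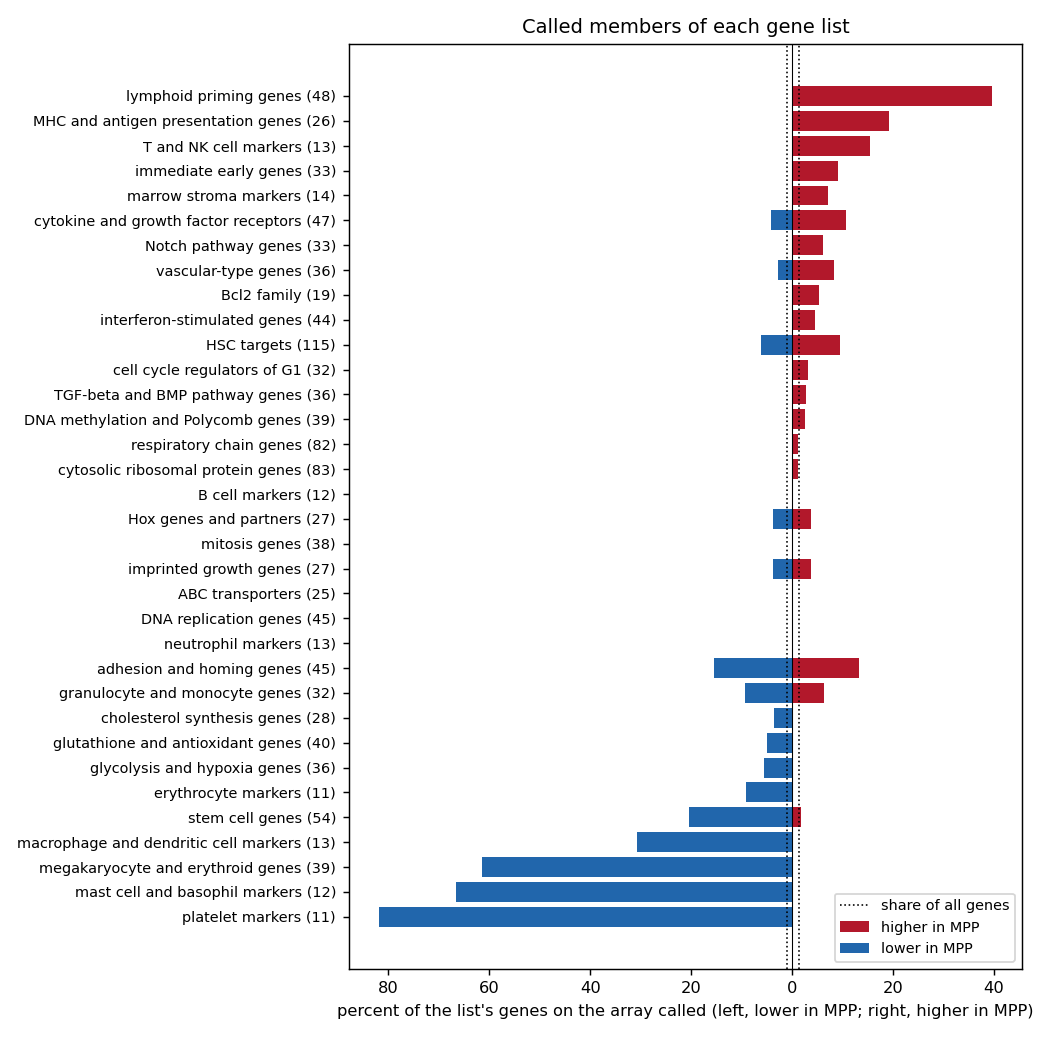
Percent of each list's genes that were called (horizontal axis), lower in MPP to the left in blue and higher in MPP to the right in red, with the number of its genes on the array in brackets and the shares of all genes (1.09% and 1.37%) as dotted lines. The platelet markers (9 of 11 lower) and lymphoid priming genes (19 of 48 higher) lie at the ends, and the lists of mitosis and DNA replication genes have none called.

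The genes of cell division gave no call. None of 38 mitosis genes and none of 45 DNA replication genes was called by limma at an adjusted p under 0.05, and their medians were -0.04 and -0.12. With the run as a block 1 of each was called. Mki67, a marker of cycling cells, was at 13.91, 14.04 and 14.03 in ST-HSC and at 13.78, 13.71 and 13.91 in MPP (difference -0.19 ± 0.21 SE, adjusted p = 1). The mitosis gene with the largest difference among those above background on all arrays was Kif23, at 0.84 (adjusted p = 0.233, and 0.00505 with the run as a block; its dimmer probe was called at 0.74), and Ccnb1, cyclin B1, was at -0.40. For replication these were E2f8, at -0.86 (adjusted p = 0.212, and 0.0381 with the run as a block), and Ccne2, at -0.65. Of 32 regulators of G1 only Mycl1 was called. Cdk6, the kinase of early G1, was at 14.90 ± 0.13 and 14.38 ± 0.08 (adjusted p = 0.271), Cdkn1c, which encodes the inhibitor p57, at 7.30 ± 0.59 and 6.86 ± 0.31 (adjusted p = 0.84), and Ccnd1, cyclin D1, at 8.90 ± 0.23 and 9.71 ± 0.31 (adjusted p = 0.125, and 0.0262 with the run as a block).

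Genes of rapid response were higher in MPP in a few cases. Of 33 immediate early genes 28 had a positive difference, with a median of 0.46, and 3 were called, all higher. Klf4, a factor that slows growth, was at 13.44, 13.48 and 13.45 in ST-HSC and at 14.55, 14.21 and 14.36 in MPP (0.92 ± 0.14 SE, adjusted p = 0.00305), Cd69 was 2.37-fold higher and Rgs2, a regulator of G protein signals, 1.70-fold higher. With the run as a block 6 were called and with the replicate number as a block 5, all higher, without MPP 2 or MPP 3 only 1, and with the 6 arrays alone in the fit none (limma). Egr1 and Fos had differences of 0.27 and 0.59 and overlapping arrays (adjusted p = 1 and 0.978). Of 44 interferon-stimulated genes 40 had a positive difference, with a median of 0.46. On 22 of the 44 all MPP arrays were above all ST-HSC arrays, against 6.77% of all genes. Mx2 (1.24, adjusted p = 0.00133) and Irf9 (0.69, adjusted p = 0.0162) were called. The run as a block gave 4 calls, with the replicate number as a block there were 6 and with normexp background correction 9, all higher, and with the 6 arrays alone in the fit 1.

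Ribosomal protein and respiratory chain genes gave 1 call each. Of 83 cytosolic ribosomal protein genes 70 had a positive difference, with a median of 0.10. When arrays were scaled to the 75th percentile this median was -0.02, while the median of all genes moved to -0.15. The ribosomal gene called was Rpl3l, the muscle-type copy of Rpl3, at 1.90 (adjusted p = 0.0479). Of 82 respiratory chain genes 65 had a negative difference, with a median of -0.15, and the gene called was Cox6a2, the heart and muscle form of a cytochrome oxidase subunit, at 7.20, 6.84 and 6.66 in ST-HSC and 11.01, 10.36 and 11.36 in MPP (4.01 ± 0.58 SE, adjusted p = 0.00214).

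The study's list of predicted targets of stem cell miRs holds 115 genes, chosen for their pattern on these same samples, so its direction is not independent evidence. Of these 11 were higher in MPP (9.57%) and 7 lower (6.09%), with a median of 0.11. Arpp21, given above, had the largest difference among them. Snn, stannin, and Fmnl2, an actin nucleator, were 3.40-fold and 2.58-fold higher (adjusted p = 0.0382 and 0.0279), and 5031439G07Rik, at 10.18, 10.09 and 10.11 in ST-HSC and 12.17, 11.86 and 11.64 in MPP, was 3.38-fold higher (adjusted p = 0.000332). Pde10a, a phosphodiesterase, was not above background on any MPP array and at least 5.68-fold higher in ST-HSC (adjusted p = 0.00059). Epdr1, Samd14 and C530008M17Rik were lower by 2.69, 2.54 and 1.73 (adjusted p = 0.000862, 0.000398 and 0.024). The count of higher genes was 21 with the run as a block and 4 when scaled to the 75th percentile, and without ST-HSC 3 or MPP 2 it was 5. The count of lower genes was 3 without either of these arrays.

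Set among all 6 populations, the named genes took different courses. The others are long-term stem cells (LT-HSC) and the common myeloid (CMP), granulocyte and monocyte (GMP) and megakaryocyte and erythroid (MEP) progenitors. Dntt was highest in MPP (17.39 ± 0.18, SD, n = 3), followed by CMP (15.20 ± 0.44) and LT-HSC (14.38 ± 0.59, n = 2), and ST-HSC (12.54 ± 0.42) stood between these and the MEP (11.46 ± 1.26) and GMP (8.35 ± 0.60). Il7r was highest in MPP too (9.38 ± 0.34), with CMP (7.89 ± 0.61), LT-HSC (7.82 ± 0.64) and MEP (6.67 ± 1.09) between MPP and ST-HSC (5.18 ± 0.45), and it was not above background in GMP. Some other genes higher in MPP than in ST-HSC were not highest in MPP. Igh-6 and Blnk were at 15.55 ± 0.63 and 13.06 ± 0.45 in LT-HSC, against 15.12 ± 0.11 and 12.56 ± 0.43 in MPP. Apol7c, Klrd1 and Ramp2 were at 6.97, 8.63 and 8.16 in LT-HSC, against 6.85, 8.55 and 7.94 in MPP. For Pf4, ST-HSC (14.68 ± 0.14) and CMP (14.62 ± 0.82) were highest, LT-HSC (12.69 ± 0.26) and GMP (12.51 ± 0.71) followed, and MPP (9.84 ± 0.53) and MEP (9.44 ± 0.45) were lowest, so that MPP was closest to MEP and ST-HSC to CMP. Vwf was lowest in MPP (8.23 ± 0.18), against 11.60 ± 0.14 in ST-HSC, 11.78 ± 0.11 in LT-HSC, 12.10 ± 0.34 in CMP, 9.99 ± 0.68 in GMP and 9.66 ± 0.06 in MEP. Gata1 was highest in MEP, at 12.08 ± 0.31, and Cpa3 in GMP, at 12.48 ± 0.19, while both were at lower levels in MPP (5.36 ± 0.64 and 7.68 ± 0.40) than in ST-HSC. These levels are descriptions, since 1 LT-HSC array was dim, its spots having a 75th percentile of 53.1 where each other array reached 243 or more, and the CMP, GMP and MEP arrays were all scanned in other runs than the numbered arrays.

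**Figure D5:**
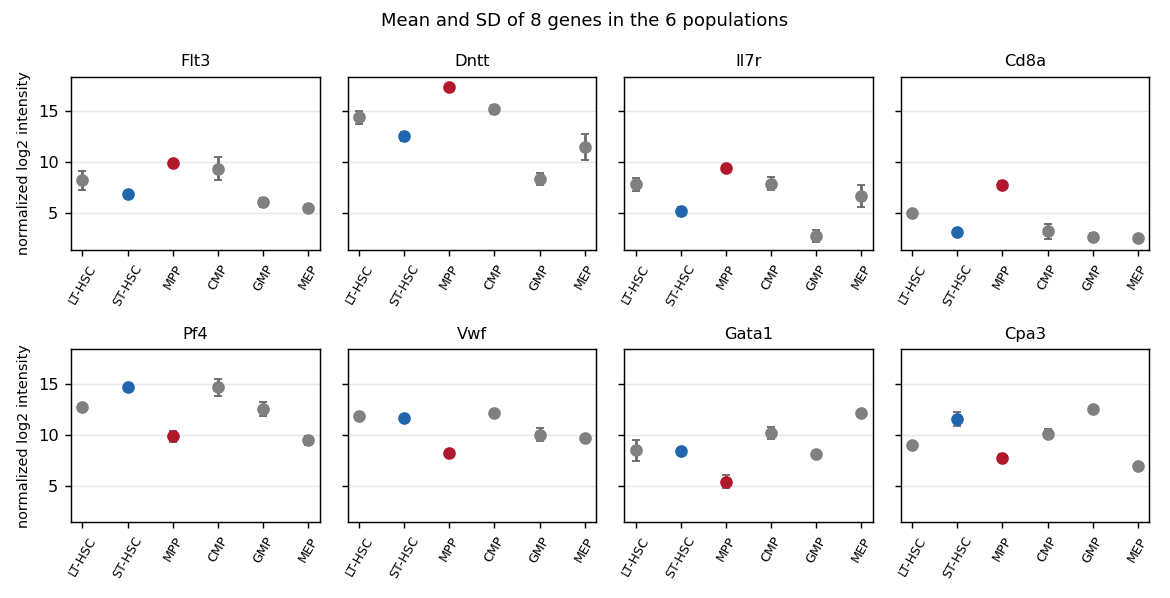
Mean normalized log2 intensity (vertical axis) with its SD (bars; n = 2 arrays for LT-HSC, 3 for the others) of 8 genes in the 6 populations, with ST-HSC in blue and MPP in red. Flt3, Dntt, Il7r and Cd8a are higher in MPP than in ST-HSC and Pf4, Vwf, Gata1 and Cpa3 lower, and Pf4 in ST-HSC (14.68) is close to its level in CMP (14.62).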

How the data were processed

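The mRNA of 17 sorted samples was hybridised to Agilent arrays in 1 colour. The deposited scanner files hold spot intensity from Agilent Feature Extraction 10.2.1.3 (probes placed on mm9) or, for 6 CMP, GMP and MEP arrays, 9.5.3.1 (mm7), per the file headers. The authors' deposited table of processed values ranks probes as the median spot intensity does (Spearman 1 on each array).

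All 17 arrays were quantile-normalized together and fitted with limma 3.58.1 in R 4.3.3 on the log2 scale of the deposited intensity, with no block. Of the spots, 1639 controls were left out, and 161 probe values were missing over the arrays. P-values were adjusted by Benjamini-Hochberg over 41174 probes, and a gene was read by its brightest probe, which gave 28090 gene names. Intensities carry no read depth, and the number of arrays limits the precision. In simulated data at this size, 25.4%, 71.6% and 87.9% of genes changed by 1, 2 and 3 log2 units were recovered.

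The comparison, the gene lists and the rule for named genes were chosen with earlier results of these data known. The rule took the sort markers, the 12 largest differences each way among genes called in both fits without overlap of arrays, up to 4 called genes each way from each of 35 lists, and a fixed set of genes. Other scalings, background corrections, filters, blocks and sets of arrays were tried. A few genes are not reported here.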

Additional observations from a re-analysis of the deposited data

How the results depend on the processing

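None of 107 called genes examined changed direction under any alternative, but 51 lost the call with the 6 arrays alone in the fit, 56 with these normalized and fitted alone and 21 at the 75th percentile. Against 692 genes called (385 higher in MPP, 307 lower), the counts were 1208 (655, 553) with the scanning run as a block. They were 1059 (581, 478) with slide as a random block and 1125 (631, 494) with scan day as a block, an alternative chosen after seeing the data. With the 6 arrays alone in the fit 307 (177, 130) were called, and with these alone normalized and fitted 235 (137, 98). Adding the run as a block to the fit of the 6 arrays gave 573 (289, 284), and 36 of the 107 lost the call. Scaled to the 75th percentile, 249 were higher, 47.8% of the calls against 55.6%. Without single arrays the counts were 410 to 705 called, 239 to 413 higher and 168 to 294 lower. The deviations of same-numbered arrays correlated at 0.52 and 0.29, those of ST-HSC 2 with MPP 3 at 0.33, of ST-HSC 3 with MPP 2 at 0.10 and of both unnumbered arrays at 0.67. By the methods the stem cell subsets were sorted together, but the labels do not tie numbers to pools of mice. With 2 numbered pairs, and MPP 3 correlating better with ST-HSC 2 than with ST-HSC 3, the numbers were not treated as pairs. With a replicate block 1008 genes were called, 584 higher and 424 lower, and 6 of the 107 examined genes lost the call. With the replicate block in a fit of the 6 arrays, and with the numbered arrays only, limma called 0, with 4533 and 3775 genes at an unadjusted p under 0.05. Genes not called changed sign in these cases, and the cause was not tested. With the numbered arrays only, Cd48 was at 0.071, Cebpa at 0.15 and Ms4a1 at 0.063. With scan day as a block, Cd48 was at 0.13 and Sfpi1 at -0.042. Cd48 was at 0.037 with slide as a random block and 0.0091 with the mean of probes, Cebpa at 0.024 with normexp and Cd3e at 0.043 with the 75th percentile. Without single arrays their differences ranged as follows: Cd48 -0.10 to 0.13, Cebpa -0.11 to 0.13, Csf3r -0.52 to 0.041, Cxcr4 -0.21 to 0.72, Meis1 -0.34 to 0.039, Ms4a1 -1.37 to 0.44, Sfpi1 -0.088 to 0.76, Cd3e -0.95 to 0.63.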

Other observations

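Genes of several other groups were called in small numbers, where 1.37% of all genes were called higher in MPP and 1.09% lower. Single calls in lists of this size are too few to describe the group. Of 40 glutathione and antioxidant genes 2 were lower in MPP: Gstm2, a glutathione transferase, was at 7.79, 7.62 and 7.31 in ST-HSC and 4.49, 4.48 and 4.84 in MPP (difference -2.97, adjusted p = 3.17e-05 by limma), and Gsr, glutathione reductase, differed by -1.39 and was called on all 3 of its probes. With the run as a block 3 of these 40 were lower, and scaled to the 75th percentile 1. Of 27 imprinted growth genes, Igf2r, the receptor that clears IGF2, was 5.38-fold higher in MPP (adjusted p = 0.00496 by limma), and Grb10, an inhibitor of insulin receptor signals, was 5.84-fold lower (adjusted p = 0.00328), and with the run as a block 3 of the list were lower. Of 36 glycolysis and hypoxia genes, Ndrg1 and Pdk3 were lower by 0.96 and 0.63. Of 28 cholesterol genes Stard4, a sterol carrier, was lower by 0.80, of 19 Bcl2 family genes Pmaip1, which encodes NOXA, was higher by 1.47, and of 39 DNA methylation and Polycomb genes Cbx2 was higher by 0.90. None of 25 ABC transporters was called by limma, but 1 was lower with the run as a block, with slide as a random block, with normexp background correction or on the authors' values, and 2 with a replicate block. Abcg3 and Abcg4 had the differences of largest size among those measured on all 6 arrays, 0.99 and -0.98.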
